A study of Rattus norvegicus with 6 samples.

Results

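The set described here is 52 genes of cultured rat astrocytes whose probes were silent on every control array and present on every array of cells that carry mutant TDP-43. The genes were chosen by the detection p-value that the scanner software gives each probe, which sets a probe's signal against negative control beads. A named probe was kept when that p was 0.05 or more on all 3 tTA arrays and under 0.01 on all 3 M337V arrays, which 71 of 13793 named probes did (0.515%). Genes of several families, and some single genes, were left out by symbol (19 probes, among them C1qa, Tyrobp, Cd53 and Pf4), which leaves 52 probes of 52 genes. The M337V cells were primary astrocytes of GFAP-tTA/TRE-TDP43 M337V rats, and the control cells were primary astrocytes of GFAP-tTA rats, so both carry the tTA transgene under the promoter of Gfap. tTA is a transcription factor that drives TRE promoters once doxycycline (Dox) is taken away, and TDP-43 is an RNA-binding protein linked to amyotrophic lateral sclerosis. Dox was withdrawn from both genotypes, and total RNA was taken 3, 4 or 6 days later, with 1 Illumina array per genotype and day. Whether the 3 arrays of either genotype stem from separate cultures is not in the labels, so every p-value below measures only the spread between these arrays.

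Of the 52 genes, 35 are known from leukocytes, above all from macrophages and microglia, and 17 from other cells. Microglia are the resident macrophages of the brain; they derive from myeloid precursors, take up debris through Fc and lectin receptors, signal through kinases and adaptors shared with other blood cells, and make superoxide with a phagocyte oxidase. PU.1, an ETS factor encoded by Spi1, drives much of the myeloid programme by binding purine-rich letters near the start of its target genes. The other genes belong to the oligodendrocyte lineage, to neurons, to motile cilia or to none of these. Brain tissue from which astrocytes are cultured holds all of these cell types beside astrocytes. In RNA from a whole culture, fewer cells of a type and less RNA per cell cannot be told apart.

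Each array held 22523 probes, of which 43.76% to 48.28% were detected on the M337V arrays and 44.81% to 46.06% on the tTA arrays. The mean signal was 377.2, 525.8 and 554 on days 3, 4 and 6 in M337V cells, and 480.8, 468.2 and 473.6 in tTA cells. The signal a probe needed for detection at 0.05 was 96.49, 116.7 and 117.8 on the M337V arrays and 108.7, 112.2 and 105.5 on the tTA arrays. The M337V array of day 3 was thus the dimmest and had the lowest limit, and signals are comparable between arrays only after normalization. Astrocyte markers were present: 14 of 14 listed astrocyte genes on the array were detected on all M337V arrays and 13 on all tTA arrays. Gfap itself read 28500, 37690 and 35730 on the M337V arrays and 32210, 35080 and 33300 on the tTA arrays. Detection does not show that the cultures were pure. Col1a2, on the fibroblast and meningeal list, read 14520, 18520 and 13290 on the M337V arrays and 35340, 34840 and 25950 on the tTA arrays. The summed signal of the astrocyte list was 92970 to 152900 on the M337V arrays and 88950 to 121400 on the tTA arrays.

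The median signal of the 52 genes was 116.7, 175.8 and 272 on days 3, 4 and 6 in M337V cells, and 97.81, 98.56 and 95.44 on the tTA arrays. Single genes lay between 105.5 and 1500 on the M337V arrays and between 79.64 and 111.3 on the tTA arrays. On the scale used below, log2 of background-corrected and quantile-normalized signal, the medians were 5.90, 6.25 and 7.17 on the M337V arrays and 4.63, 4.55 and 4.62 on the tTA arrays. All 52 genes had the 3 M337V values above the 3 tTA values on that scale, as had 13.5% of the 10478 probes tested. The rule had largely fixed this order, and nothing is read from it. On the raw signal 3 of the 52 genes overlapped between genotypes (Efhb, Map3k1 and P2ry14). In each of these the lowest M337V value was that of day 3, the dimmest array, and the cause was not tested. Raw overlap was not counted over all probes. Since every tTA value was below the detection limit, each fold is a lower bound, the mean M337V level over the mean of the higher of the tTA level and the lowest detected level of that array. The bounds ran from at least 1.28-fold to at least 18.3-fold, with a median of 2.62, and 35 genes were at least 2-fold higher in M337V cells. By day, the median bound was 1.86 on day 3, 2.36 on day 4 and 4.61 on day 6. The same rule with the genotypes exchanged, silent on all M337V arrays and present on all tTA arrays, found 1 gene, Spetex2d, with 91.72, 114.5 and 111.1 on the M337V arrays and 154.1, 128.3 and 141.3 on the tTA arrays. In all, 5444 named probes were silent on every tTA array and 5147 on every M337V array.

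**Figure D1:**
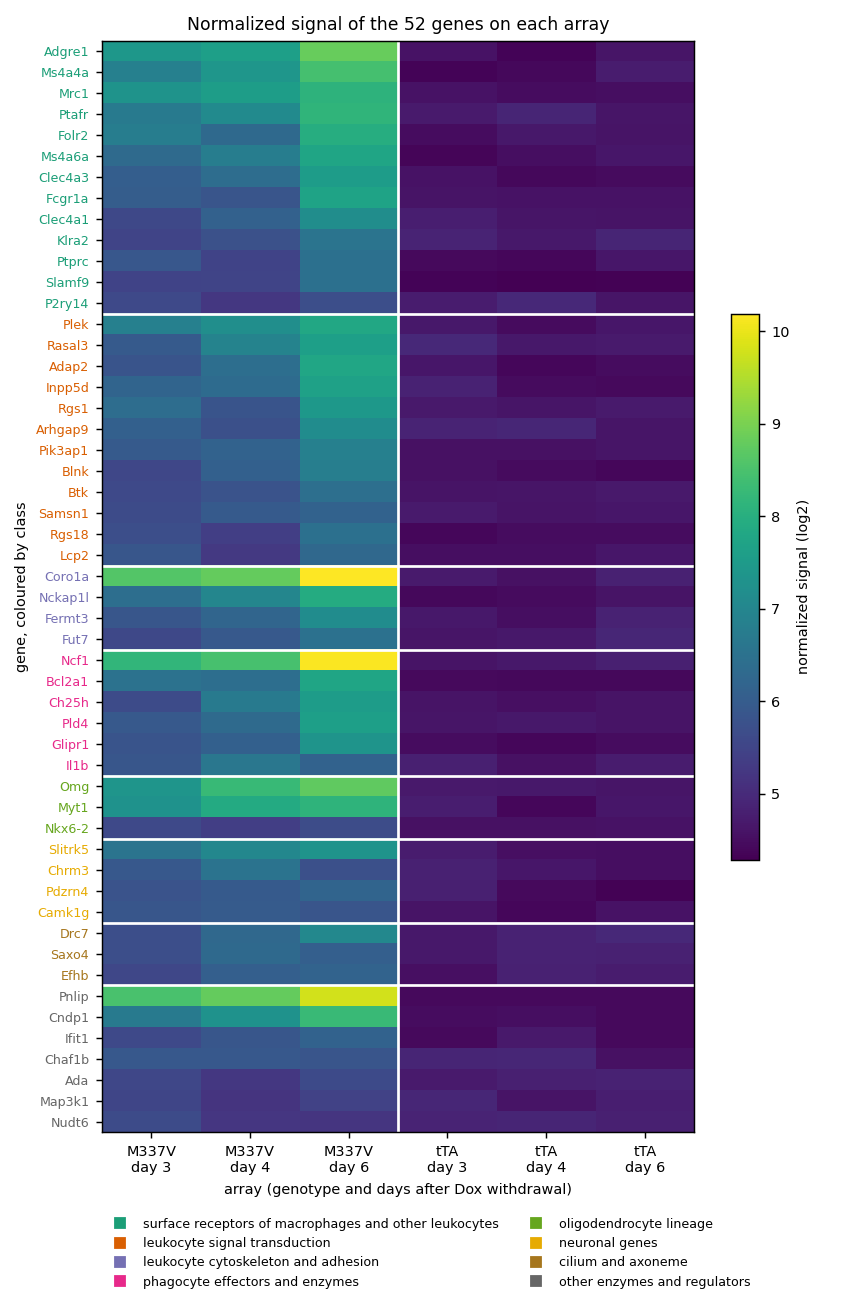
Normalized signal (log2, colour) of the 52 genes (rows, named in the colour of their class and ordered by level) on the 3 M337V arrays (left) and the 3 tTA arrays (right). The M337V medians were 5.90, 6.25 and 7.17 on days 3, 4 and 6, and Coro1a, Ncf1 and Pnlip had the highest fold bounds. The tTA columns show no gene above its detection limit.

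The limits of the rule cut through a continuum. Just inside the limit on tTA arrays, the lowest tTA detection p was 0.0521 for Drc7, 0.0545 for Rasal3, 0.0558 for P2ry14, 0.0655 for Map3k1 and 0.0691 for Fut7. Just outside it lay Egfr (0.0485), Actg2 (0.0473), Usp42 (0.0461), Dnai7 (0.0448) and Vwf (0.0448). Just inside the limit on M337V arrays lay Ada, Lcp2, Map3k1, Nudt6, P2ry14 and Slamf9, all with a highest M337V detection p of 0.0097. Just outside it lay Mfng and Rlbp1 (0.0109 each), and Orc1, Kif9 and Tp73 (0.0133 each). Map3k1 and P2ry14 were thus at the edge on both sides, while Coro1a, Ncf1 and Pnlip read at least 292.1 on every M337V array.

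The rule sets a floor on each M337V array but no order among the M337V days, so the change per day on the M337V arrays was tested for all 10478 probes. It rose in 8 of the 52 genes and fell in 0, where 34 probes of all tested rose (0.324%) and 6 fell (limma, Benjamini-Hochberg adjusted over all probes, threshold 0.05). The 8 were 0.69 ± 0.08 for Ncf1, 0.65 ± 0.06 for Adap2, 0.58 ± 0.06 for Pld4, 0.54 ± 0.06 for Ms4a4a, 0.53 ± 0.06 for Clec4a1, 0.52 ± 0.06 for Cndp1, 0.50 ± 0.06 for Nckap1l and 0.47 ± 0.06 for Ms4a6a (log2 per day ± SE), with adjusted p of 0.0448 to 0.0468. 7 of them are leukocyte genes, and Cndp1, a carnosinase, is the exception. Each slope rests on 3 M337V arrays, but its SE uses a spread shared by all 6 arrays. The rule keeps the tTA values of the 52 genes near background, which can lower that spread. The share of the 52 that passed, adjusted or not, is thus not independent of the rule. At an unadjusted p under 0.05 were 38 of the 52 (73.1%, against 15.6% of all probes), and none of the slopes below 0. The median slope of the 52 was 0.38 log2 per day, with a range of -0.12 to 0.69, against -0.01 over all probes tested. It was above 0 in 47 of the 52 (90.4%), against 46.2% of all probes. In the 35 leukocyte genes the slope was above 0 in all 35, with a median of 0.45, and in the other 17 it was above 0 in 12, with a median of 0.12. The rule holds every tTA value below detection on all days and so keeps the tTA slopes near 0 (median 0, range -0.15 to 0.13), and they are no contrast to the M337V slopes. The difference of the 2 slopes passed for 0 of the 10478 probes and so for 0 of the 52 genes (limma, lowest adjusted p of the 52 = 0.323). The slopes are thus not shown to differ between genotypes. In 33 of the 52 the unadjusted p of that difference was under 0.05 (limma, 63.5%, against 7.5% of all probes), which restates the M337V slopes. The count of 8 moved with the processing, from 0 when dim probes were not filtered out (adjusted p of the 8, 0.0534 to 0.0578) to 40 with median scaling, which also moved the median slope of all probes to 0.10. Without the day 6 array, the change from day 3 to day 4 had a median of 0.28 over the 52 genes.

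**Figure D2:**
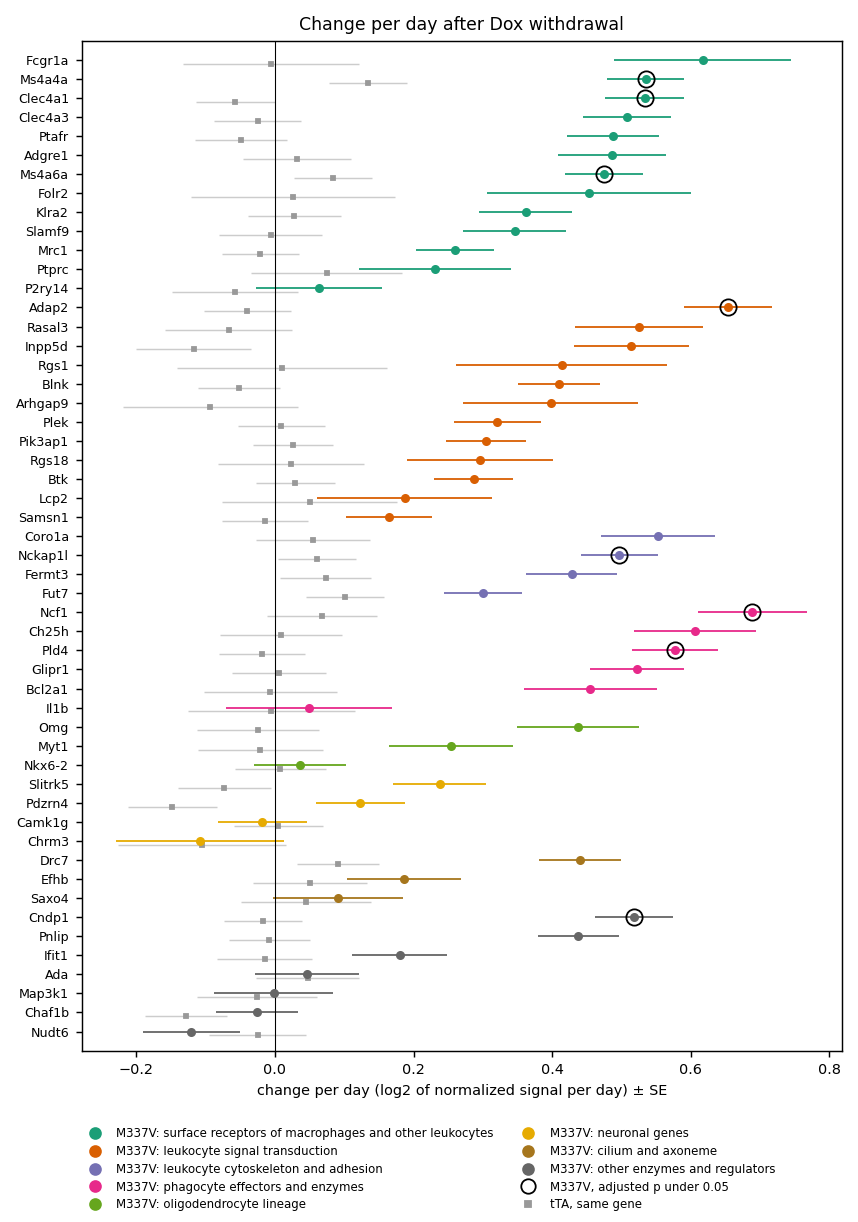
Change per day (log2 of normalized signal per day, ± SE) of each of the 52 genes on the M337V arrays (coloured circles, by class) and on the tTA arrays (grey squares), with black rings around the 8 genes that passed. The M337V slopes ran from -0.12 to 0.69 and the tTA slopes from -0.15 to 0.13.

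Promoter sequences were matched for 44 of the 52 genes in a RefSeq table of the rat genome (GRCr8), which holds 250 bases before and 50 bases after the start it uses for each gene. That start lay within 100 bases of the gene's outer end in 27 of the 44 genes, over 1000 bases inside the gene in 10, and at most 37 bases inside it in the 5 genes printed next. They are shown because 35 of the 52 genes are known from leukocytes, whose myeloid cells have a known master regulator. A further reason is that letters in the promoters are a feature that the detection rule did not use. The letters GAGGAAGT, a strong PU.1 site, stood in 5 of the 44 promoters (11.4%), against 2.42% of all 33469 promoters in the table and 2.29% of the 11442 promoters of genes on the array. All 5 belong to the 29 leukocyte genes with a promoter. The site began 28 bases before the start in Ms4a6a, 215 in Bcl2a1, 3 in Inpp5d and 15 in Slamf9, and Samsn1 had it 48 bases before the start and again on the opposite strand 28 before. The 5 promoters are printed 5′ to 3′ on the strand of the gene, with GAGGAAGT, or ACTTCCTC where it reads on the other strand, in capitals.
Ms4a6a (chr1:217839524-217839823, minus strand): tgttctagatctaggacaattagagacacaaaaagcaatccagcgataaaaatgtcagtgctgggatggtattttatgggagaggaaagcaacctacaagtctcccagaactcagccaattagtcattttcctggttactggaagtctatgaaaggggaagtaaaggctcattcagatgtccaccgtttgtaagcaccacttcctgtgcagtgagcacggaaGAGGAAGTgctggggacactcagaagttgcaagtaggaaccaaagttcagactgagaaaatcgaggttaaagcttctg
Bcl2a1 (chr8:98596556-98596855, plus strand): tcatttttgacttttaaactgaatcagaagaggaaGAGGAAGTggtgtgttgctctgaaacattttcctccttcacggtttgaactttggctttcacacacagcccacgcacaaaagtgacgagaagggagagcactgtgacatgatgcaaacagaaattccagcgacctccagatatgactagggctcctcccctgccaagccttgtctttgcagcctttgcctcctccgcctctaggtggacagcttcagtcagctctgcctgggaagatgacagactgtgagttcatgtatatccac
Inpp5d (chr9:95735283-95735582, plus strand): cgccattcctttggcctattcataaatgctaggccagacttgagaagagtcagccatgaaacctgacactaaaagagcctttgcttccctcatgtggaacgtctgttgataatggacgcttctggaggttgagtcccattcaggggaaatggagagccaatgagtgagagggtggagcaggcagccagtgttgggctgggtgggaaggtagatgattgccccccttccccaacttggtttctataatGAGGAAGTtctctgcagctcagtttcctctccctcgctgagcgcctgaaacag
Samsn1 (chr11:28021895-28022194, minus strand): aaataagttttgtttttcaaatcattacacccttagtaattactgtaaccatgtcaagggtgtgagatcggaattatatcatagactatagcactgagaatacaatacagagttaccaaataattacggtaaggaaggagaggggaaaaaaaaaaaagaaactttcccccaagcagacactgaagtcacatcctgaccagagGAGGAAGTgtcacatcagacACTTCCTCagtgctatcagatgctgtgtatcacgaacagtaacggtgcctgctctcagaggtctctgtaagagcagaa
Slamf9 (chr13:87474077-87474376, plus strand): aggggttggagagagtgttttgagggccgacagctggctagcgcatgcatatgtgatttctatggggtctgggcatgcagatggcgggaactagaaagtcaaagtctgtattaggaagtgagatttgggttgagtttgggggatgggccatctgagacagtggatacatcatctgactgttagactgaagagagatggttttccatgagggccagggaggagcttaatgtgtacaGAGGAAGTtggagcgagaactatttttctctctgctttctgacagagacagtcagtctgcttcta
The probe of Spi1, the gene of PU.1, was itself detected on none of the 6 arrays, with 81.74, 96.51 and 113.6 on the M337V arrays and 98.26, 96.45 and 89.89 on the tTA arrays.

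Other sets of letters were searched on both strands too. The shorter ETS letters AGGAAGT, which lie within the PU.1 letters, stood in 8 of 44 promoters (18.2%, against 8.41% of all). The interferon response element (ISRE) stood in Adgre1, Camk1g and Ncf1 (6.82%, against 3.92%). C/EBP letters (TTGCNNAAT) stood in 1 promoter (2.27%, against 2.58%), AP-1 letters (TGANTCA) in 4 (9.09%, against 7.33%), and the NF-kappaB site in 0 (against 1.3%). STAT letters (TTCNNNGAA) stood in 6 (13.6%, against 8.87%), Runx letters (TGTGGT) in 9 (20.5%, against 17.3%), RFX letters (GTTGCC) in 9 (20.5%, against 12.2%), the E-box CACGTG in 3 (6.82%, against 6.42%) and Sox letters (AACAAAG) in 2 (4.55%, against 5.98%). The GC box GGGCGG stood in 15 (34.1%, against 33.1% of all and 49.8% of the promoters of genes on the array) and the TATA letters TATAAA in 4 (9.09%, against 14.2%). The promoters of the 2 leukocyte genes with the highest fold bounds, Coro1a and Ncf1, are printed with GC boxes (GGGCGG, or CCGCCC on the other strand) in capitals. Both hold GC boxes, and in Ncf1 the capitals also mark ISRE letters that begin 135 bases before the start.
Coro1a (chr1:190731054-190731353, minus strand): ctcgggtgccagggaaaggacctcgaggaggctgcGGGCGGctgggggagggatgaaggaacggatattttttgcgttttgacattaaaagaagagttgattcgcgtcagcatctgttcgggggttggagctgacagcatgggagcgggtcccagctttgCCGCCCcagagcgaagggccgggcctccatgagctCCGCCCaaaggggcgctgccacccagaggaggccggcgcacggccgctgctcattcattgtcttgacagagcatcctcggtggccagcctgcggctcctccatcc
Ncf1 (chr12:28121635-28121934, plus strand): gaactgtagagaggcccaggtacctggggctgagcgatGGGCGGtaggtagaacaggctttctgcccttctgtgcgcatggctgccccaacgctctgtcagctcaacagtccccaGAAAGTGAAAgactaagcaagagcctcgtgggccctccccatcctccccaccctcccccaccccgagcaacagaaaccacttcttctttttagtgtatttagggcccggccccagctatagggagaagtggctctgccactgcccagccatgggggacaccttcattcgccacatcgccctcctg
A match describes letters and is not a bound site.

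13 of the genes encode surface receptors of macrophages and other leukocytes. Their median signal was 121.5, 179.1 and 356.2 on days 3, 4 and 6 in M337V cells, and 96, 97.1 and 95.3 on the tTA arrays. Adgre1, the adhesion receptor F4/80 that marks macrophages, read 201.3, 320.5 and 655.2 on the M337V arrays and 96.1, 87.8 and 95.6 on the tTA arrays. Its bound was at least 7.8-fold, and its day 6 level was 2.64 times its day 3 level after normalization. Mrc1, the mannose receptor, read 191.9, 314 and 435.1 on the M337V arrays and 96, 95.7 and 90.7 on the tTA arrays, at least 6.37-fold higher. Folr2, a folate receptor of tissue macrophages, read 155.1, 179.1 and 405.7 on the M337V arrays and 91.4, 102.9 and 94.3 on the tTA arrays, and most of its change came after day 4. Ptafr, the receptor for platelet-activating factor, read 149.9, 248.4 and 445.8 on the M337V arrays and 100.7, 109.5 and 95.3 on the tTA arrays. Its slope of 0.49 ± 0.07 log2 per day did not pass (adjusted p = 0.064).

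Ms4a4a and Ms4a6a, members of the tetraspan MS4A family, both rose with time on the M337V arrays. Ms4a4a read 159.5, 284.3 and 534.5 there, against 83.5, 91.6 and 99.4 on the tTA arrays, at least 5.96-fold higher. Ms4a6a, whose promoter holds the PU.1 letters, read 132.4, 217 and 363.1 on the M337V arrays and 85.3, 97.1 and 96.1 on the tTA arrays, at least 3.91-fold higher. Of the C-type lectin receptors of the Dcir family, Clec4a1 read 107.9, 168.5 and 274.1 on the M337V arrays and 102.9, 101.3 and 94.4 on the tTA arrays, and its slope passed. Clec4a3, which lies next to Clec4a1 on chromosome 4 with 0 genes between them, read 121.5, 185.7 and 327.1 on the M337V arrays and 95.8, 91.7 and 89.3 on the tTA arrays, and its slope of 0.51 ± 0.06 just missed (adjusted p = 0.052). Fcgr1a, the high-affinity receptor for IgG, read 120.9, 153.4 and 356.2 on the M337V arrays and 96.5, 99.8 and 93.9 on the tTA arrays. Its slope of 0.62 ± 0.13 was among the 6 steepest but did not pass (adjusted p = 0.116), and it rested on day 6: between days 3 and 4 the change was -0.18 log2 per day.

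The other 4 receptors include the general leukocyte marker. Ptprc, the phosphatase CD45 that marks all nucleated blood cells, read 116.5, 137.1 and 200.4 on the M337V arrays and 90, 90.6 and 96.5 on the tTA arrays, at least 1.93-fold higher. Klra2, a lectin-like receptor of the Ly49 family, read 105.9, 149 and 209.2 on the M337V arrays and 105.3, 102.4 and 103.9 on the tTA arrays, so that on day 3 the raw signals nearly met. Slamf9, an immunoglobulin-type receptor with PU.1 letters in its promoter, read 105.5, 137.4 and 200.3 on the M337V arrays and 83.5, 81.9 and 79.6 on the tTA arrays. P2ry14, a receptor for UDP-sugars, read 108.2, 128.4 and 151.9 on the M337V arrays and 101.5, 111.3 and 95.6 on the tTA arrays, overlapped on raw signal and had a slope of only 0.06 ± 0.09.

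12 genes encode proteins of leukocyte signal transduction. Their median signal was 117.1, 163.6 and 252.9 on the M337V arrays and 98.75, 97.35 and 96.05 on the tTA arrays. Plek, the protein kinase C substrate pleckstrin, read 159.3, 260.2 and 376 on the M337V arrays and 99.1, 94.9 and 96.5 on the tTA arrays, at least 4.93-fold higher. Adap2, a GTPase activator of the Arf family with pleckstrin homology domains, read 114.6, 186.8 and 366.4 on the M337V arrays and 98.4, 91.4 and 90 on the tTA arrays. It was the only gene of this class whose slope passed, and its day 6 level was 3.86 times its day 3 level. Rasal3, a Ras GTPase activator, read 118.4, 230.2 and 338.3 on the M337V arrays and 108, 102.3 and 99 on the tTA arrays, at least 3.59-fold higher. Inpp5d, the lipid phosphatase SHIP1, has the PU.1 letters 3 bases before its start and read 126.1, 183 and 345.4 on the M337V arrays and 104.9, 94.8 and 88.4 on the tTA arrays. The slopes of both missed the threshold (0.53 ± 0.09, adjusted p = 0.0911, for Rasal3 and 0.51 ± 0.08, adjusted p = 0.075, for Inpp5d).

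Arhgap9 read 123.5, 148 and 269.9 on the M337V arrays and 105.5, 110 and 95.7 on the tTA arrays. The array holds 2 more probes for Arhgap9, and both were detected on none of the 6 arrays, with 81.07 to 100.2 on the M337V arrays, so its probes disagree. Rgs1, which speeds the shut-off of G proteins, read 135, 152.1 and 311.2 on the M337V arrays and 100, 101.5 and 98.5 on the tTA arrays. Its relative Rgs18, which lies near it on chromosome 13 with 2 genes between them, read 111, 133.2 and 200.9 on the M337V arrays and 86.7, 95.3 and 89.7 on the tTA arrays. Both changed mostly after day 4, and neither slope passed. Blnk and Pik3ap1, adaptors that link immune receptors to phospholipase C and to phosphoinositide 3-kinase, lie on chromosome 1 with 6 genes between them. Blnk read 107, 167.8 and 231.6 on the M337V arrays and 94.8, 95.2 and 84.8 on the tTA arrays, and Pik3ap1 read 118.5, 170.4 and 235.9 on the M337V arrays and 95.4, 98.3 and 95.9 on the tTA arrays. Btk, the kinase mutated in X-linked agammaglobulinaemia, read 108.4, 150.4 and 199.6 on the M337V arrays and 96.8, 101.5 and 97.8 on the tTA arrays. Blnk, Pik3ap1 and Btk, which act together downstream of immune receptors, were at least 2.24, 2.51 and 1.94-fold higher. Lcp2, the adaptor SLP-76, read 115.8, 129.4 and 186.7 on the M337V arrays and 92.5, 96.4 and 96.2 on the tTA arrays, and Samsn1, an adaptor with SH3 and SAM domains, read 109.1, 159.3 and 177.9 on the M337V arrays and 100.6, 100 and 96.3 on the tTA arrays.

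4 genes serve the leukocyte cytoskeleton and adhesion. Coro1a, the actin-binding coronin of blood cells, read 365.3, 599.3 and 1500 on the M337V arrays and 100.8, 98.8 and 102.2 on the tTA arrays. It had the highest bound of the 52, at least 18.3-fold, and its slope of 0.55 ± 0.08 did not pass (adjusted p = 0.0686). Nckap1l, the Hem1 subunit of the WAVE complex that nucleates branched actin, read 136.7, 236.3 and 397.3 on the M337V arrays and 87.2, 94.4 and 94.2 on the tTA arrays, and its slope passed. Fermt3, the integrin activator kindlin-3, read 116.1, 174.3 and 268.9 on the M337V arrays and 99.7, 97.2 and 102.6 on the tTA arrays. Fut7, the fucosyltransferase that builds selectin ligands, read 107.5, 157.8 and 201.9 on the M337V arrays and 97.7, 103.1 and 104.3 on the tTA arrays, at least 2-fold higher.

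6 genes encode effectors and enzymes of phagocytes, and this class had the highest median slope, 0.55 log2 per day. Ncf1, the p47phox organiser of the phagocyte NADPH oxidase, read 292.1, 500.1 and 1482.4 on the M337V arrays and 96.7, 102.7 and 101.2 on the tTA arrays. It was at least 15.4-fold higher and had the steepest slope of the 52, with a day 6 level 3.97 times that of day 3. Pld4, an exonuclease of endolysosomes that degrades single-stranded nucleic acid, read 117.4, 179.8 and 338 on the M337V arrays and 97.9, 102.8 and 94.2 on the tTA arrays, and its slope passed. Ch25h, which makes 25-hydroxycholesterol, read 109.2, 209.9 and 326.9 on the M337V arrays and 96.2, 97.5 and 94.7 on the tTA arrays. Its slope of 0.61 ± 0.09 did not pass (adjusted p = 0.0685), and its change per day was 1.08 between days 3 and 4 and 0.42 between days 4 and 6. Bcl2a1, a survival protein of the Bcl-2 family with PU.1 letters in its promoter, read 140.8, 186.6 and 364.9 on the M337V arrays and 89.1, 92.2 and 86.1 on the tTA arrays. Glipr1, a protein of the CAP superfamily, read 114.7, 166.8 and 295 on the M337V arrays and 91.4, 91.1 and 89.9 on the tTA arrays. Il1b, the cytokine interleukin-1 beta, differed from the rest of its class: it read 115.5, 202 and 177.8 on the M337V arrays, highest on day 4, and 103.8, 98.6 and 99.8 on the tTA arrays, with a slope of 0.05 ± 0.12 (adjusted p = 0.876).

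**Figure D3:**
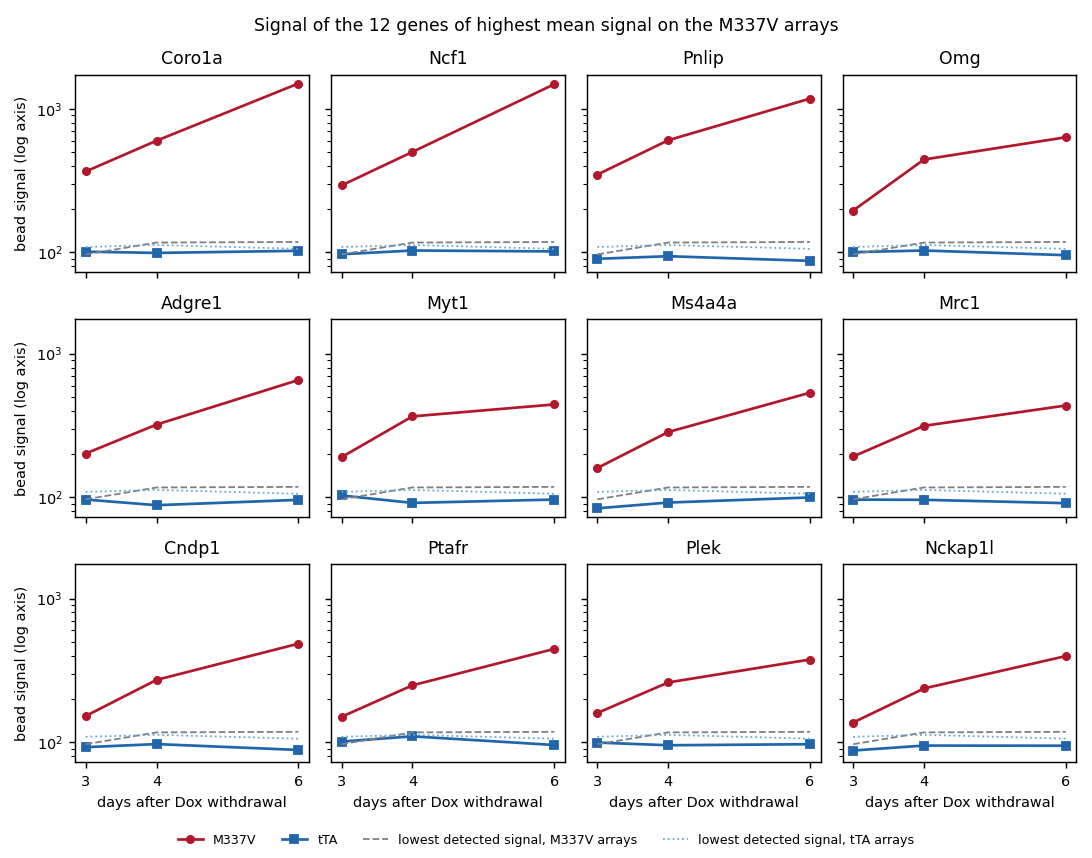
Bead signal (log axis) against days after Dox withdrawal for the 12 genes of highest mean signal on the M337V arrays: M337V (red circles), tTA (blue squares) and the lowest signal detected at p under 0.05 on the arrays of each genotype (dashed and dotted lines). The M337V signal was higher on day 6 than on day 3 for every gene shown, as for Coro1a (365.3 on day 3 and 1500 on day 6), while the tTA signals stayed under the tTA limit.

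3 genes belong to the oligodendrocyte lineage. Omg, the oligodendrocyte-myelin glycoprotein, which is also made by neurons, read 195.1, 442.9 and 632.8 on the M337V arrays and 100, 102.7 and 95.3 on the tTA arrays, at least 8.78-fold higher. Myt1, a zinc finger factor of oligodendrocyte precursors and young neurons, read 189.8, 365.5 and 442.6 on the M337V arrays and 102.6, 91.1 and 96.1 on the tTA arrays, at least 6.85-fold higher. The larger part of either raw change came between days 3 and 4, and their slopes of 0.44 ± 0.09 and 0.25 ± 0.09 did not pass (adjusted p = 0.111 and 0.268). Nkx6-2, a homeobox factor of myelinating cells, read 108.1, 133.3 and 149 on the M337V arrays and 94.8, 98.5 and 93.7 on the tTA arrays, and a slope of 0.04 ± 0.07.

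4 genes are known from neurons, and none of their slopes passed. Slitrk5, a leucine-rich repeat protein of synapses, read 142.6, 239 and 290.1 on the M337V arrays and 101.7, 98.2 and 90.6 on the tTA arrays, at least 3.9-fold higher. Chrm3, the M3 muscarinic acetylcholine receptor, read 116.9, 196.3 and 153.5 on the M337V arrays, highest on day 4, and 104.3, 101.7 and 90.8 on the tTA arrays. Camk1g, a calmodulin-dependent kinase of neurons, read 115.7, 160.3 and 159.5 on the M337V arrays and 96.3, 91.4 and 93.4 on the tTA arrays. The slopes of Chrm3 and Camk1g were -0.11 ± 0.12 and -0.02 ± 0.06, and with median scaling they were 0 and 0.10. Pdzrn4, a PDZ and RING domain protein, read 114.1, 159.6 and 179.9 on the M337V arrays and 103.8, 93.8 and 80.2 on the tTA arrays, while a second probe of Pdzrn4 was detected on none of the 6 arrays.

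3 genes serve motile cilia. Drc7, a subunit of the nexin-dynein regulatory complex, read 111.2, 177.3 and 258.3 on the M337V arrays and 99.2, 107.8 and 105.3 on the tTA arrays, with a slope of 0.44 ± 0.06 (adjusted p = 0.064). A second Drc7 probe was detected on all 6 arrays, with 167.6, 358.9 and 523.9 on the M337V arrays and 122.9, 155.1 and 149.6 on the tTA arrays. That probe was higher in M337V cells on each day, by 1.71 on the log2 scale, so Drc7 was above background on the tTA arrays by that probe. Saxo4, a stabiliser of axonemal microtubules, read 111.1, 178.7 and 172.6 on the M337V arrays and 99.2, 107.8 and 102 on the tTA arrays. Efhb, an EF-hand protein of the axoneme, read 106.7, 165.7 and 178.8 on the M337V arrays and 94.3, 107.3 and 99.5 on the tTA arrays, and neither slope passed.

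The last 7 genes share no cell type. Pnlip, a triacylglycerol lipase best known from the pancreas, read 347.5, 603.3 and 1177.7 on the M337V arrays and 89.9, 93.7 and 87 on the tTA arrays. It was at least 16.4-fold higher, and its slope of 0.44 ± 0.06 did not pass (adjusted p = 0.064). Cndp1, a carnosinase, read 151.9, 271.2 and 484.8 on the M337V arrays and 92, 96.7 and 88 on the tTA arrays, at least 5.43-fold higher, and was the one gene outside the leukocyte classes whose slope passed. Ifit1, an interferon-induced protein encoded near Ch25h with 5 genes between them, read 108, 153.7 and 177.1 on the M337V arrays and 89, 103.6 and 87.9 on the tTA arrays. The slopes of the remaining 4 lay between -0.12 and 0.05. Chaf1b, a histone chaperone of replication, read 117.1, 156.9 and 159.6 on the M337V arrays and 106.1, 109.8 and 92.7 on the tTA arrays. Ada, adenosine deaminase, read 106.9, 128.3 and 147.3 on the M337V arrays and 100.6, 106.6 and 102.8 on the tTA arrays. Map3k1, a kinase upstream of JNK, read 106.4, 126.2 and 139.9 on the M337V arrays and 106.8, 100.5 and 100.9 on the tTA arrays, with the M337V array of day 3 below the tTA array of that day. Nudt6, a nudix hydrolase, read 109.4, 127.5 and 129.8 on the M337V arrays and 105.1, 109.2 and 101.2 on the tTA arrays, and its slope of -0.12 ± 0.07 was the lowest of the 52 (adjusted p = 0.453).

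After normalization 34 of the 52 genes were higher at each later day on the M337V arrays, 12 were lowest on day 4, 4 were highest on day 4 (Il1b, Chrm3, Camk1g and Saxo4) and 2 were lower at each later day (Chaf1b and Nudt6). On raw signal 48 were higher at each later day and 4 were highest on day 4, while the mean signal of the M337V arrays also was 377.2 on day 3 and 554 on day 6. The 52 genes were spread over 19 chromosomes, with 12 on chromosome 1. The 19 genes that passed the detection rule but were left out by symbol had a median slope of 0.47 and 3 of 19 called, close to the 0.45 of the leukocyte genes kept.

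Genes of the same pathways and cell types that did not pass the detection rule were compared too, but not wholly apart from detection. Listed genes detected on fewer than 3 arrays were not tested. Clec7a, Cybb, Dok3, Fgr, Tlr4, Tlr7, Esam and Snap25, all counted as higher below, were detected on 0 tTA arrays. They were tested only because the 3 M337V arrays detected them, which tilts the counts towards higher. Genes detected on 1 or 2 tTA arrays also needed M337V arrays to reach 3. Among the microglia genes counted as higher, these were Aif1, C1qb, Ctss, Trem2, Fcgr3a, Ly86 and Laptm5. Only Fcer1g and Cd14 of that count were detected on all 3 tTA arrays. The p of a gene detected on fewer than 3 tTA arrays is thus no independent support, here and below. Over all 10478 probes, 917 were higher in M337V cells (8.75%) and 855 lower (8.16%), with a median difference of -0.05 log2 (limma, the day as a block, adjusted over all probes). Of the microglia and macrophage genes, 10 of 15 tested were higher and 0 lower, with a median difference of 1.71 (0.78, with 1 lower, without background correction). The summed signal of the whole list was 10350 to 41200 on the M337V arrays and 3829 to 4251 on the tTA arrays. That sum includes genes that passed the rule, such as Adgre1, C1qa, C1qc and Pf4, so the rule fixed part of the gap. Summed signals, here and below, are raw and not normalized between arrays. Aif1, the actin-binding protein Iba1 that marks microglia, read 1367, 2501 and 6754 on the M337V arrays and 92.79, 105.3 and 186.3 on the tTA arrays, and was detected on 1 tTA array. It was at least 55.9-fold higher (adjusted p = 0.000109). C1qb, a complement subunit, was at least 46.9-fold higher (adjusted p = 0.000399) and Ctss, the lysosomal protease cathepsin S, at least 42.2-fold (adjusted p = 5.5e-05), each detected on 1 tTA array. Fcer1g, the gamma chain of Fc receptors, was detected on all 6 arrays and differed by 5.73 ± 0.16 log2 (SE, n = 3 days, as for the values below; adjusted p = 0.000117). Some microglia markers were near background: P2ry12 and Tmem119, marks of resting microglia, were detected on 1 M337V array each (Tmem119 on 1 tTA array too), and Irf8 on none. Of the 15 tested, Itgam (0.43 ± 0.25, adjusted p = 0.303), Mpeg1 (0.43 ± 0.12, adjusted p = 0.07) and Cx3cr1 (0.39 ± 0.11, adjusted p = 0.0638) did not pass. Nor did Olfml3 (-0.63 ± 0.19, adjusted p = 0.0802) and Sall1 (-0.29 ± 0.14, adjusted p = 0.214), both detected on all 6 arrays. Itgam was detected on 3 tTA arrays and 2 M337V arrays.

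Among the pathways of the leukocyte genes, 4 of 10 kinases and adaptors were higher and 2 lower, Dok1 (-0.78 ± 0.11, adjusted p = 0.00922) and Tec (-0.76 ± 0.17, adjusted p = 0.0351), with a median of 0.28. The phosphatase Ptpn6, detected on 1 tTA array, was at least 7.34-fold higher (adjusted p = 0.00034). 4 of 10 cytoskeletal genes were higher and 0 lower (7 higher without background correction and 8 with median scaling), led by the actin bundler Lcp1 (5.28 ± 0.12, adjusted p = 5.5e-05) and the GTPase Rac2 (2.16 ± 0.23, adjusted p = 0.0041). Of the NADPH oxidase subunits beside Ncf1, 2 of 4 were higher: Rac2, and Cybb, the catalytic subunit, at least 1.8-fold (adjusted p = 0.0168). Cybb was detected on 0 tTA arrays and was tested only through its detection on the 3 M337V arrays, so its p is no independent support. That limit also holds for Aif1, C1qb, Ctss, Ptpn6 and Fcgr3a, and for Lyl1 and Sox10 below, each detected on 1 tTA array. 4 of 6 Fc and phagocytic receptors were higher, but Fcer1g, Fcgr3a and Clec7a among these are counted in the microglia list too. Fcgr3a, detected on 1 tTA array, was at least 13.2-fold higher (adjusted p = 0.000512). 8 of 11 genes of Toll-like receptors and the inflammasome were higher, with Ly86 again shared with the microglia list. Among the 8 were Casp1 (2.44 ± 0.22, adjusted p = 0.00236), which processes interleukin-1 beta, and Tlr2 (2.05 ± 0.29, adjusted p = 0.00963). Of the genes of purine and lipid mediator signalling 2 of 4 were higher, Tbxas1, thromboxane synthase (2.47 ± 0.22, adjusted p = 0.00229), and Pla2g7 (0.68 ± 0.16, adjusted p = 0.0418). Of 7 haematopoietic transcription factors 1 was higher, Lyl1, detected on 1 tTA array (at least 6.37-fold, adjusted p = 0.00431), and 3 were lower, among them Runx1 (-0.90 ± 0.15, adjusted p = 0.0167), with a median of -0.21.

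The markers of other blood cells were mostly silent. Of 15 lymphocyte genes on the array 3 were detected on any array and 1 was tested, Cd3e, at -0.07 ± 0.18 (adjusted p = 0.84), and the summed signal was 1258 to 1569 on the M337V arrays and 1367 to 1442 on the tTA arrays. Of 16 genes of mast cells and granulocytes 4 were detected on any array, and of 2 tested Hdc was higher (1.15 ± 0.10, adjusted p = 0.00199), with summed signals of 1381 to 1782 on the M337V arrays and 1473 to 1576 on the tTA arrays. Some markers of the other cell types named above were higher in M337V cells too. 6 of 8 genes of the oligodendrocyte lineage were higher and 0 lower, with a median of 1.98 and summed signals of 6825 to 20060 on the M337V arrays and 4591 to 5178 on the tTA arrays. Bcas1, a mark of young oligodendrocytes, differed by 3.91 ± 0.53 (adjusted p = 0.00853) and Sox10, detected on 1 tTA array, was at least 8.55-fold higher (adjusted p = 0.00446). 7 of 13 neuronal genes were higher, with a median of 0.55, led by the growth cone protein Gap43 (4.94 ± 0.15, adjusted p = 0.000134). 1 was lower, Eno2 (-0.60 ± 0.11, adjusted p = 0.0196), and Rbfox3, Gad2 and Slc17a7 were detected on 0 arrays. 9 of 10 ciliary genes were higher, with a median of 1.80, led by Cfap126 (2.48 ± 0.23, adjusted p = 0.00245). The median slope on the M337V arrays was 0.40 for the oligodendrocyte lineage, 0.04 for neuronal genes and 0.22 for ciliary genes, against -0.01 over all probes. The summed signals were 6384 to 10060 on the M337V arrays and 5103 to 5816 on the tTA arrays for the neuronal list, and 2889 to 7883 on the M337V arrays and 1495 to 2277 on the tTA arrays for the ciliary list. What part these cell types have in the 52 genes was not tested.

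Of 14 astrocyte genes 4 were higher and 2 lower, with a median of 0.09 that changed sign between normalizations (-0.02 to 0.15). S100b was higher (0.93 ± 0.15, adjusted p = 0.0127) and the transporter Slco1c1 lower (-1.16 ± 0.12, adjusted p = 0.00382). Of 9 fibroblast and meningeal genes 1 was higher and 5 were lower, with a median of -0.65, among them Postn (-1.88 ± 0.15, adjusted p = 0.00155) and Col1a1 (-1.83 ± 0.26, adjusted p = 0.0101). Of 6 genes of pericytes and smooth muscle 3 were lower and 0 higher, of 6 endothelial genes 2 were higher and 0 lower, and of 4 Schwann cell and choroid plexus genes 0 were called. With the other normalizations and scalings run, no list's median but those of the astrocyte and lymphocyte lists changed sign (Cd3e, the lymphocyte gene tested, ran from -0.08 to 0.02). The medians shrank without background correction, to 0.09 for kinases and adaptors, 0.57 for the cytoskeleton, 0.46 for the NADPH oxidase, 0.48 for Fc and phagocytic receptors, 0.55 for Toll-like receptors and the inflammasome, -0.07 for haematopoietic transcription factors, 0.25 for neurons, 1.17 for cilia and -0.43 for fibroblast and meningeal genes.

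**Figure D4:**
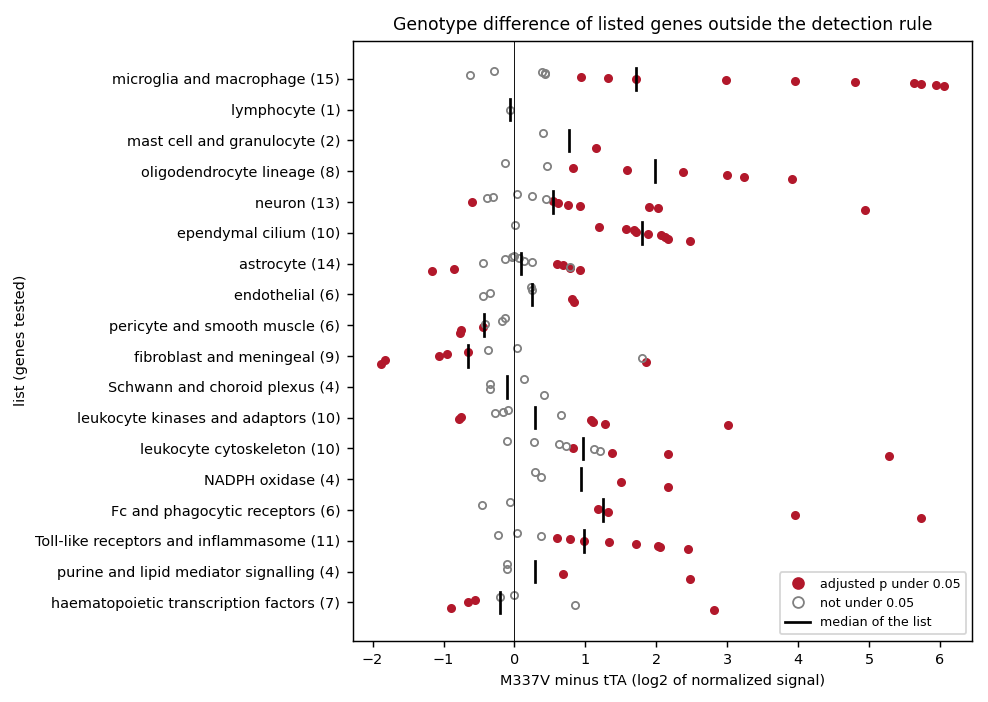
Genotype difference (M337V minus tTA, log2 of normalized signal) of listed genes that did not pass the detection rule, by list, with the number of genes tested; filled points had an adjusted p under 0.05 and bars mark the list's median; differences of genes that few tTA arrays detected are against background signal. The median was 1.71 for microglia and macrophage genes, 1.98 for the oligodendrocyte lineage, 1.80 for ependymal cilia, 0.09 for astrocytes and -0.65 for fibroblast and meningeal genes.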

How the data were processed

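The deposited table of unprocessed values holds, per the file headers, the mean signal intensity of the beads for each probe, by array, with its detection p-value, and the series' value table holds log2 values that the authors made. The submitters' processing notes name GenomeStudio, without a version. Set against the signals, the deposited log2 values are scaled by the upper quartile of each array, within 0.00238 once a value per probe is removed, and their centring is unknown. Gene names came from GEO's annotation of the platform, and all 52 genes matched NCBI's rat table (GRCr8, used for names, neighbours and promoters).

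Background was corrected in R 4.3.3 with limma 3.58.1 by normexp from the detection p-values, with an offset of 16, and arrays were quantile-normalized and put on the log2 scale. The 10478 probes detected at p under 0.05 on at least 3 arrays were tested with lmFit and eBayes, and all 52 passed that filter by the rule that chose them. The genotype fit had the day as a factor, since the design matches arrays of a day (2 residual degrees of freedom, prior 3.64). Deviations of same-day arrays from their group means correlated at 0.43, 0.10 and 0.41. The day fit gave each genotype its own mean and slope (prior 3.82). The genotype contrast chose the genes, so it is not tested for them. Both fits were tested on simulated data. The 52 genes, their classes, the gene lists and the letters searched were chosen with earlier results of these data known, and a list gene was named by the size of its difference. The number of arrays limits the precision.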

Additional observations from a re-analysis of the deposited data

Results flagged for a closer look

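16 probes without a gene symbol also passed the detection rule, in data that the comparisons above did not use. Their median signal was 115.5, 194.1 and 236.8 on days 3, 4 and 6 in M337V cells, and 97.51, 103.3 and 97.04 in tTA cells. The slope on the M337V arrays was above 0 in 13 of the 16, with a median of 0.30 log2 per day, and it passed for 2 probes. ILMN_1368941 read 135.3, 214.3 and 527.7 on the M337V arrays and 92.02, 102.8 and 89.3 on the tTA arrays, with a slope of 0.70 ± 0.08 (limma, adjusted p = 0.0448). ILMN_1362050 read 123.1, 197 and 333.5 on the M337V arrays and 101.3, 103.7 and 101.8 on the tTA arrays, with a slope of 0.50 ± 0.06 (adjusted p = 0.0448). ILMN_1353766 went the other way after day 4, with 180.5, 227.3 and 198.7 on the M337V arrays and 103.3, 106.9 and 98.26 on the tTA arrays, and its slope of -0.24 ± 0.06 did not pass (adjusted p = 0.135).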

How the results depend on the processing

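The rule kept 121 genes with an M337V detection p under 0.05, 38 with a tTA detection p of 0.10 or more, and 68 to 139 when a day was left out, the most without day 3. Genotype calls (1772) were 1169 without the replicate block and 747 to 1213 when a day was left out (747 without day 4, 1149 without day 6). Calls of the M337V day slope over all probes (40) were 654 without background correction, 742 with the deposited values, 947 with median scaling, 104 with cyclic loess, 8 without the filter, 20 among probes detected on all 6 arrays (none of the 52), 446 with an offset of 50, 93 with 1 probe per gene, 548 with a variance trend, 79 over the order of days, and 0 for the slope difference with the replicate block. Among the 52 genes (8 called) they were 27 without background correction, 29 with the deposited values, 40 with median scaling, 19 with cyclic loess, 0 without the filter (more probes tested), 27 with an offset of 50, 23 with a variance trend, 9 over the order of days, 0 for the slope difference with the block, and 1 without the 4 leukocyte classes, an alternative chosen after seeing the data. The median slope (0.38) was 0.19 without background correction, 0.50 with median scaling, 0.20 with the deposited values, 0.27 with an offset of 50, and 0.28 to 0.41 when a day was left out. Slopes above 0 numbered from 38 of 52 without day 6 to 51 of 52 with median scaling, where the median slope of all probes was 0.10. Over all probes the share above 0 was 46.2% with the main values and was not counted in the other settings. The genotype calls were higher in M337V for 51.7%, but 40.4% with the deposited values, 66.1% with median scaling and 61.5% with cyclic loess. The slope difference passed for 10 of the 52 without background correction, 25 with median scaling, 15 with the deposited values and 3 with an offset of 50. Over all 10478 probes it passed for 67, 192, 97 and 23 in the same settings. For the 52 genes these counts largely restate the M337V slopes, since the rule keeps the tTA slopes near 0. Slopes changed sign, untested, for Fcgr1a (-0.18) and Nkx6-2 (-0.21) without day 6, Nkx6-2 with the deposited values (-0.03), Map3k1 with median scaling (0.09), cyclic loess (0.05) and without day 3 (0.14), Camk1g with median scaling (0.10), cyclic loess (0.04) and without day 6 (0.11), Chaf1b with median scaling (0.09) and cyclic loess (0.02), and Chrm3 with median scaling (0) and without day 6 (0.64). Where no cause is given, it was not tested. Signal near background limits most tTA values to bounds.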
